A study of Mus musculus with 7 samples.

Results

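Cytosolic ribosomal protein genes encode the proteins that, with ribosomal RNA, make up the large (60S) and small (40S) subunits of the ribosome. Of the 56065 genes in the deposited count table, 85 met the rule for this family, a protein-coding gene with an Rpl or Rps symbol and no pseudogene or S6 kinase, with 52 coding for 60S and 33 for 40S proteins. The measurement was bulk RNA-Seq of the mouse extrahepatic bile duct (EHBD) 48 hours after surgery. The 4 libraries of bile duct ligation (BDL) came from adult wild-type C57BL/6J mice whose distal duct was ligated near the duodenum (2 male, 2 female), and the 3 sham libraries from mice of that strain given a laparotomy alone (2 male, 1 female). The study counts these samples in mice, in numbers that match the libraries, so each library was taken as 1 mouse.

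Mammalian ribosomal protein mRNAs are among the most abundant in a dividing cell, and the subunits need most of their proteins in equal numbers. Most of these mRNAs begin with a C followed by a run of pyrimidines, the terminal oligopyrimidine (TOP) motif, through which mTORC1 and LARP1 set how much of the mRNA is translated. An mRNA level therefore does not give the rate at which the protein is made. In a whole duct, fewer cells of a type and less RNA per cell cannot be told apart.

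The starts of 7 members, all picked from those with a run, are printed because the TOP run is the sequence feature that the family is best known for. Each line holds 10 bases before and 20 bases from the RefSeq start on GRCm38.p6, on the gene's own strand. Capitals mark the pyrimidine run from its first C within 5 bases of that start. In Rpl7a and Rpl35 the pyrimidines begin further upstream than the capitals.
Rpl15: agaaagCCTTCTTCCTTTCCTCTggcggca
Rpl27a: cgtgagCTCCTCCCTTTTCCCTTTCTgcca
Rpl35: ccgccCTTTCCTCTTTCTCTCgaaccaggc
Rpl35a: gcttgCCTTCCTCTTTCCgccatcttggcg
Rpl7a: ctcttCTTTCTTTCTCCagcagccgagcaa
Rps10: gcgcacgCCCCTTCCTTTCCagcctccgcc
Rps6: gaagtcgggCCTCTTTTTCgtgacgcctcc
These windows lie at chr14:18270967-18270996 (Rpl15, minus strand), chr7:109519185-109519214 (Rpl27a, plus strand), chr2:39005112-39005141 (Rpl35, minus strand), chr16:33056472-33056501 (Rpl35a, plus strand), chr2:26910797-26910826 (Rpl7a, plus strand), chr17:27635225-27635254 (Rps10, minus strand) and chr4:86857348-86857377 (Rps6, minus strand). The search asked for a C within 5 bases of the annotated start, followed by at least 4 further C or T bases. Pyrimidines further upstream were allowed. Such a run was found in 29 of the 64 members with a RefSeq window (45.3%), and in 21.2% of 27025 symbols with one. The other 21 members had no window in the table used, which leaves the share over the whole family void. Rpl35a also has RefSeq windows at chr16:33056443-33056472 and chr16:33056504-33056533, in which no run was found. A match describes the letters and not a functional motif.

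BDL libraries held more ribosomal protein mRNA than sham libraries. The 85 genes together took 1.74%, 1.54%, 1.48% and 1.73% of the counts in BDL 1 to BDL 4, against 0.801%, 1.27% and 0.573% in sham 1 to sham 3. After TMM scaling, which sets libraries to a common level of the typical gene, the summed level was 14875, 15030, 14265 and 16144 CPM (counts scaled to a common library size) in the BDL libraries and 7540, 10989 and 9416 CPM in the sham libraries. Every BDL library lay above every sham library, and sham 2 was the sham library nearest to BDL. The ratio of the group means was 1.62.

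**Figure D1:**
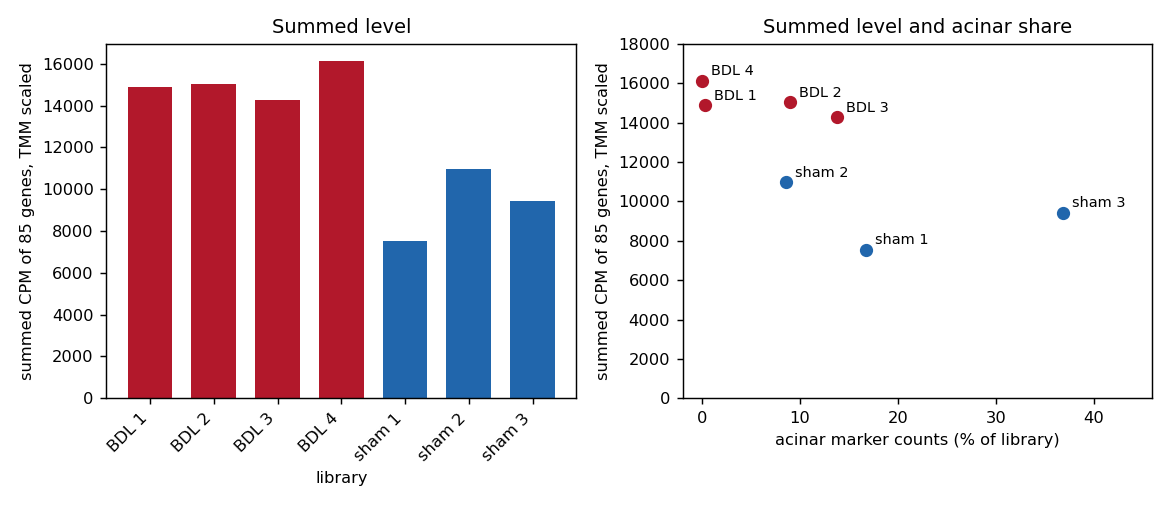
Left, summed TMM-scaled CPM of the 85 genes in each library, with BDL libraries in red and sham libraries in blue. Right, the same sums against the share of library counts on 18 pancreatic acinar marker genes. BDL 2 and sham 2 have near-equal acinar shares (8.99% and 8.59%) and sums of 15030 and 10989 CPM.

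Gene by gene, 55 of the 84 members tested rose after BDL and 0 fell at an adjusted p under 0.05 (edgeR quasi-likelihood F test with sex as a term). Over all 25209 genes tested, 11.8% were called higher and 11% lower, and among the 11906 genes with a mean of at least 5.10 CPM, the level of the lowest member over 1000 counts, 21.4% were called higher and 12.8% lower. At an unadjusted p under 0.05, 73 members were higher and 0 lower, beside 18.4% of all genes higher and 18.7% lower. DESeq2 called 68 members higher and 0 lower, beside 15.3% of all genes called higher. The median log2 fold change of the tested members was 0.76, against -0.0075 for all genes and 0.16 for genes at the family's level. Every BDL library exceeded every sham library in 72 of the 84 members, a pattern that 18.7% of all genes and 29.2% of genes at the family's level showed.

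The count of members called depended on single libraries, although 0 members were called lower under any of 23 alternative ways of processing or choosing the libraries. It was 19 without sham 1, 24 without sham 3, 30 without BDL 1 and 27 without BDL 2. The share of all genes called higher was lower there too, at 8.51% without sham 1, 7.04% without sham 3, 6.82% without BDL 1 and 7.15% without BDL 2. Without sham 1 no female sham library remained, so the sex term left the male libraries alone to set the surgery effect. With library totals in place of TMM factors, 4 of 84 members were called, beside 4.97% of all genes. Under that scaling the family was called about as often as any gene. That scaling shifted the median of all genes to 0.17, and the members' median was 0.93. Upper quartile scaling, which shifted the median of all genes to -0.13, ended 9 calls, among them Rpl12, Rpl13a, Rpl18, Rpl27a, Rpl35 and Rpl36, and left a members' median of 0.64. A term for acinar content left 29 members called, beside 9.77% of all genes, and the male libraries alone left 24, beside 11.4%. Rpl5, Rpl27 and Rpl29 were called under all 23 alternatives.

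**Figure D2:**
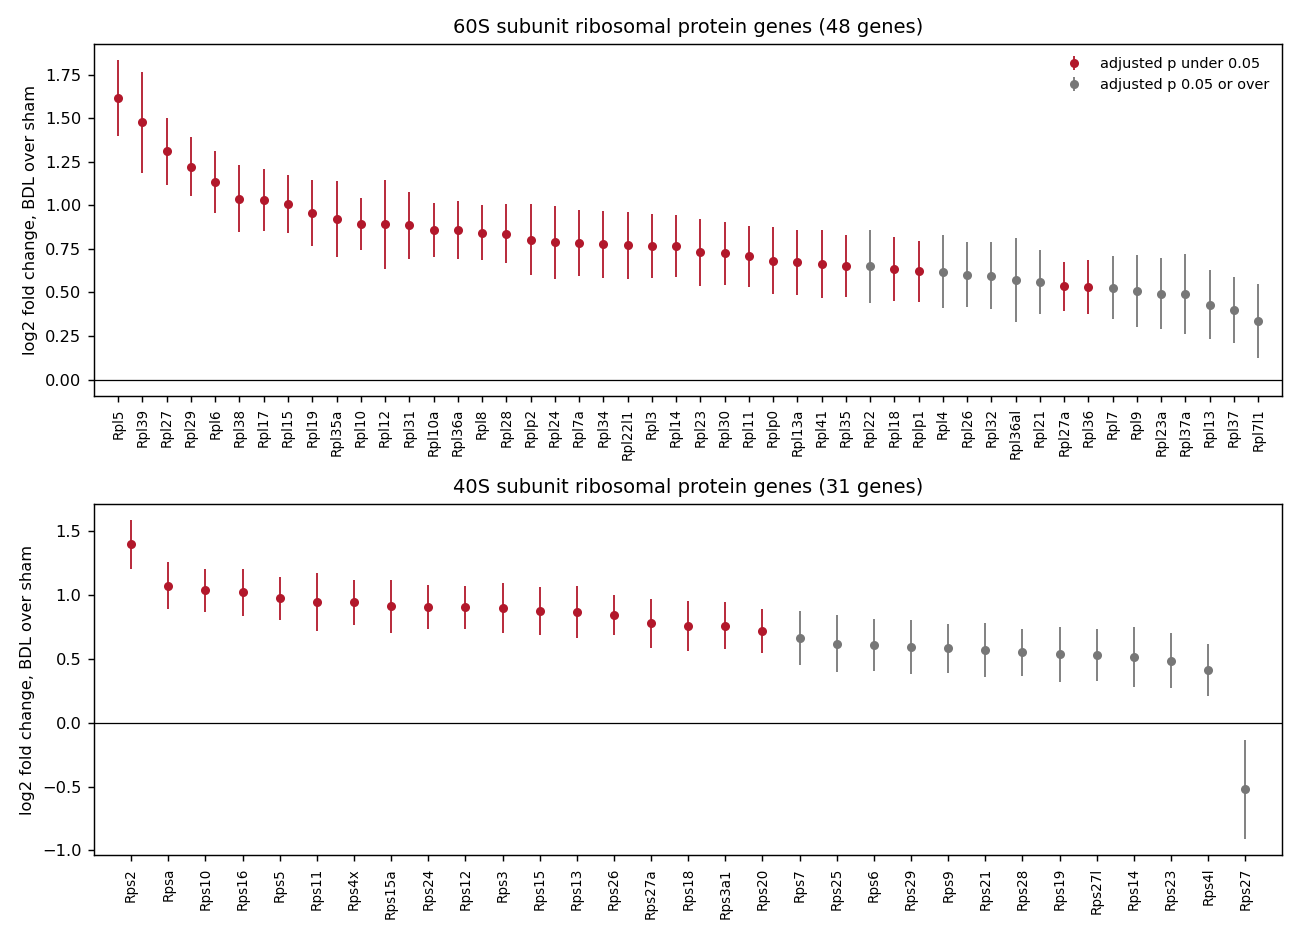
Log2 fold change (BDL over sham) with its standard error for 48 60S genes and 31 40S genes with at least 100 counts in all. Red marks an adjusted p under 0.05 in edgeR. Values run from 1.62 for Rpl5 to -0.52 for Rps27, and the quartiles of all 82 such genes, 3 of them not drawn, are at 0.58 and 0.90.

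Genes of both subunits rose. Of the 51 60S genes tested 35 rose (68.6%), and of the 33 40S genes 20 rose (60.6%), beside 11.8% of all genes. Among all genes at the family's level, 21.4% were called higher. The median over all tested genes of a subunit was 0.73 for 60S and 0.78 for 40S on the log2 scale. The 40S genes took 42.4%, 42.3%, 42.5% and 42.4% of the family's counts in the BDL libraries and 39.9%, 41.2% and 40.2% in the sham libraries, so every BDL library had the higher 40S share. Without Rps2, the 40S share ran from 39.81% to 40.31% in the BDL libraries and from 38.34% to 39.75% in the sham libraries, still without overlap. The subunit shares were not tested. Across the 82 genes with at least 100 counts, the log2 fold change had a Spearman rho of 0.17 with coding length and -0.16 with mean level. Coding length was that of the annotated canonical transcript. With the share of counts on near-identical copies, described further on, rho was 0.21. These values are a description across genes that share libraries.

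Rpl5, Rpl39, Rps2, Rpl27 and Rpl29 were among the largest rises. Rps2, a 40S protein near the entry of the mRNA channel (ENSMUSG00000044533, chr17:24937080-24940904, GRCm39), had 607, 614, 529 and 574 CPM in the BDL libraries against 192, 259 and 233 CPM in the sham libraries. The groups did not overlap, and the log2 fold change was 1.39 ± 0.19 (SE; edgeR adjusted p = 0.0034). Rpl39 lies on the X chromosome (ENSMUSG00000079641, chrX:36345092-36349130) and encodes a small protein of the peptide exit tunnel. It had 102, 110, 105 and 114 CPM in the BDL libraries against 28.1, 62.1 and 31.9 CPM in the sham libraries, with sham 2 above the other sham libraries. Its log2 fold change was 1.48 ± 0.29 (edgeR adjusted p = 0.011).

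Rpl27 had 93.0, 99.8, 88.1 and 107 CPM in the BDL libraries against 30.03, 49.8 and 42.4 CPM in the sham libraries (log2 fold change 1.31 ± 0.19). Rpl29 had 112, 126, 107 and 126 CPM in the BDL libraries against 40.8, 56.3 and 59.7 CPM in the sham libraries (log2 fold change 1.22 ± 0.17). These are 60S proteins, and no library of either gene crossed into the other group. Rpl6 (1.13), Rpsa (1.07), Rpl38 (1.04), Rps10 (1.04), Rps16 (1.02) and Rpl15 (1.01) rose as well. Rpsa is also known as the laminin receptor, and Rpl38 is known in mice for its part in translating Hox mRNAs.

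**Figure D3:**
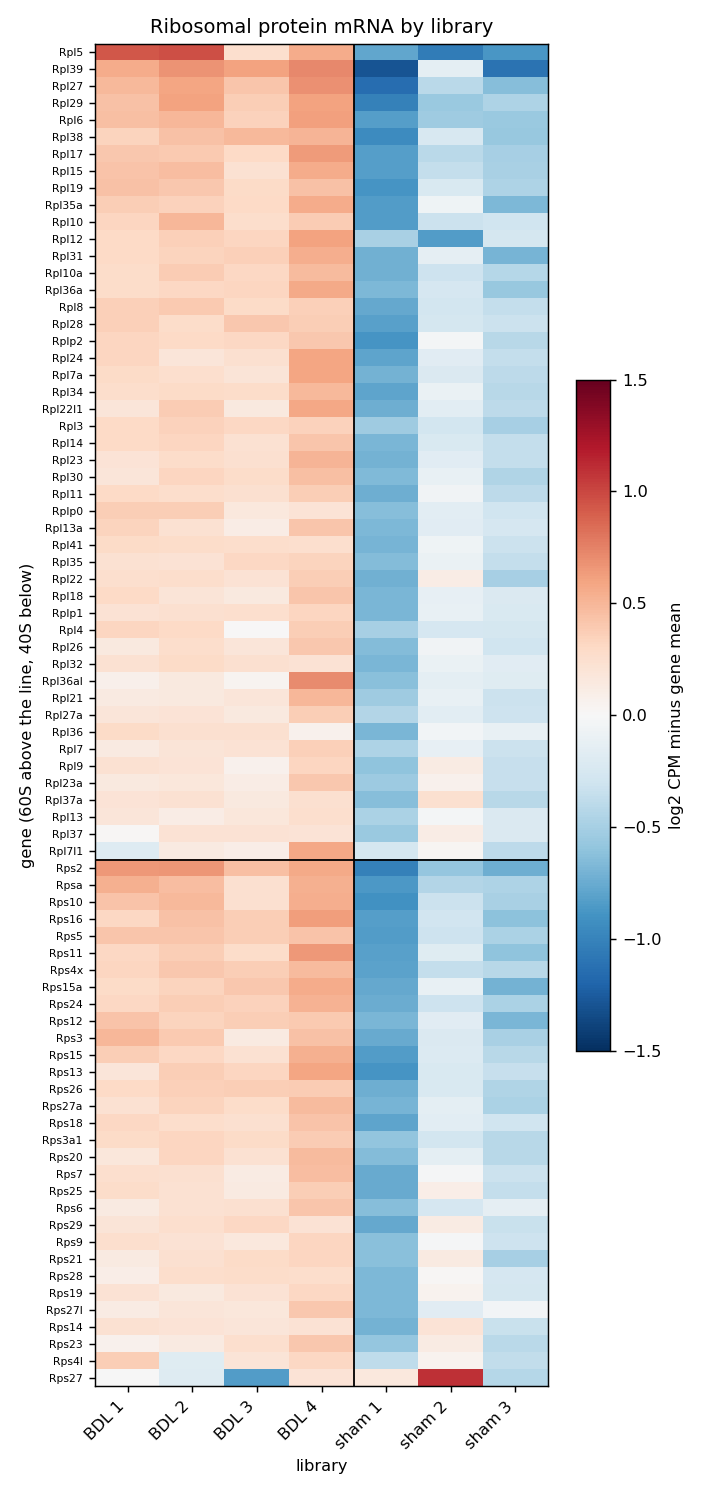
Log2 CPM of each of 79 genes minus its own mean over the 7 libraries, 60S genes above the line and 40S genes below, BDL libraries left of the vertical line and sham libraries right of it. Over all 82 genes with at least 100 counts, 3 of them not drawn, BDL 4 is the highest BDL library for 63. Sham 2 is the highest sham library for 75 genes and sham 1 the lowest for 77.

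The P stalk recruits elongation factors to the 60S subunit, and its genes rose. Rplp0, the stalk base, had 594, 591, 512 and 530 CPM in the BDL libraries against 296, 412 and 372 CPM in the sham libraries (log2 fold change 0.68 ± 0.19, edgeR adjusted p = 0.042). Rplp1 (0.62 ± 0.18) and Rplp2 (0.80 ± 0.20), which bind Rplp0 as dimers, rose too. Upper quartile scaling ended the calls of Rplp0 and Rplp1. Rpl12, which binds beside the stalk, had 5.92, 6.20, 6.04 and 7.34 CPM in the BDL libraries against 3.45, 2.70 and 4.02 CPM in the sham libraries, but most of its counts lay on a copy described further on.

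Rpl5, Rpl11 and Rpl23 bind Mdm2 when they are free of the ribosome, and Rpl5 and Rpl11 do so with 5S ribosomal RNA. Rpl11 had 84.5, 82.7, 81.4 and 88.4 CPM in the BDL libraries against 41.4, 65.9 and 52.4 CPM in the sham libraries (log2 fold change 0.71 ± 0.17). Rpl23 had 158, 165, 162 and 195 CPM in the BDL libraries against 83.7, 121 and 107 CPM in the sham libraries (0.73 ± 0.19). All 3 genes rose. Of 3 genes of the p53 arm, Cdkn1a, which encodes the cell cycle inhibitor p21, rose (1.86 ± 0.26, edgeR adjusted p = 0.0034), whereas Mdm2 (0.49, adjusted p = 0.066) and Trp53 (0.53, adjusted p = 0.098) were not called.

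Rps27a encodes ubiquitin fused to a 40S protein. It had 185, 200, 191 and 220 CPM in the BDL libraries against 97.5, 143 and 114 CPM in the sham libraries (log2 fold change 0.78 ± 0.19, edgeR adjusted p = 0.026). Rack1, the scaffold on the 40S head, whose symbol falls outside the rule, rose as well (1.41 ± 0.16). Fau, which joins a ubiquitin-like protein to a 40S protein, had a log2 fold change of 0.61 (adjusted p = 0.058).

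Levels per kb used the coding length of the annotated canonical transcript. On that basis, the highest mean levels in BDL libraries were those of Rpl41 and Rpl32. Rpl41 had 2405 CPM per kb in BDL libraries and 1573 in sham libraries, and Rpl32 had 812 in BDL libraries and 558 in sham libraries. Rpl41 encodes the smallest ribosomal protein, so its level per coding kb is the most sensitive to the length used. Rps27l (748 and 533), Rps25 (690 and 470), Rpl13 (687 and 518) and Rps14 (676 and 498, CPM per kb in BDL and sham libraries) came next. Of these 6, Rpl41 was called higher (log2 fold change 0.66, edgeR adjusted p = 0.047), and the others had adjusted p-values from 0.063 to 0.16. Rps14 overlapped, with 300 to 311 CPM in the BDL libraries and 162 to 306 CPM in the sham libraries. The order of levels holds for these lengths and for each gene's own row only, without counts on the near-identical copies described further on. The canonical length was 426 bases for Rpl37a, against 276 aligned bases of its copy Gm4149. For Rpl39 it was 237 bases, against 153 for its paralog Rpl39l. A shorter length would raise the level per kb of such genes, and the order under other lengths was not taken. Rpl13 had 27.0% of its counts on copies, and Rpl35, which is not among the 6, had 43.0%.

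Of 27 members that were not called and had at least 100 counts, 13 had an adjusted p under 0.1 and 17 had every BDL library above every sham library. Over all genes tested, called or not, 18.7% had every BDL library above every sham library, and 29.2% did at the family's level. In 9 of the 10 genes with overlapping groups, sham 2 was the highest sham library, and 8 of the 10 had no overlap without it. Leaving out the highest sham library makes separation easier for any gene. The share over all genes without sham 2 was not taken, so no conclusion about the family is drawn from that count.

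Rps27, a zinc finger protein of the 40S subunit (ENSMUSG00000090733, chr3:90119819-90120977), was the single well-counted member with a negative estimate. It had 25.7, 22.7, 14.5 and 29.8 CPM in the BDL libraries against 28.7, 55.1 and 19.2 CPM in the sham libraries. The groups overlapped, and sham 2 alone was high. The log2 fold change was -0.52 ± 0.39 (edgeR adjusted p = 0.37) and -0.06 without sham 2.

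The coding starts of Rps27, its copy Rps27rt and its paralog Rps27l are printed because coding reads of the first pair cannot be told apart. Each line holds coding bases 1 to 90 on GRCm39, and capitals mark bases that differ from Rps27.
Rps27: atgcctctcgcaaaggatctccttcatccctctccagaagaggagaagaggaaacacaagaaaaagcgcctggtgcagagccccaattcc
Rps27rt: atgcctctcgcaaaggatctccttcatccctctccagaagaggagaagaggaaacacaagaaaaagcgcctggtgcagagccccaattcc
Rps27l: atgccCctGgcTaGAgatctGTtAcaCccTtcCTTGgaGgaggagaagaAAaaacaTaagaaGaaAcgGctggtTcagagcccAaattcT
Rps27rt lies on the minus strand at chr9:114811434-114811807 and matched Rps27 at all 255 coding bases, whereas Rps27l, on the plus strand at chr9:66853340-66856808, differed at 61 of 255. Rps27rt held most of the counts of the pair, and 76.5% of the counts on Rps27 and its copies lay on copies. With the copies added, the log2 fold change was -0.34 (edgeR adjusted p = 0.40). Rps27l, a p53 target, had 176, 183, 182 and 214 CPM in the BDL libraries against 102, 144 and 157 CPM in the sham libraries (0.53 ± 0.20, edgeR adjusted p = 0.10).

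Estimated counts of other members were divided in the same way. A search of the annotated transcripts found 591 near-identical copies of 77 members, and these held 12.8% of the counts on members and copies. For 6 members, over 50% of the counts lay on copies. Copies took 0.219% to 0.253% of all counts in the BDL libraries and 0.0880% to 0.189% in the sham libraries. With copies added to their parent gene, 55 members were again called higher, beside 12% of all genes; Rpl10 lost its call and Rps7 gained one.

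**Figure D4:**
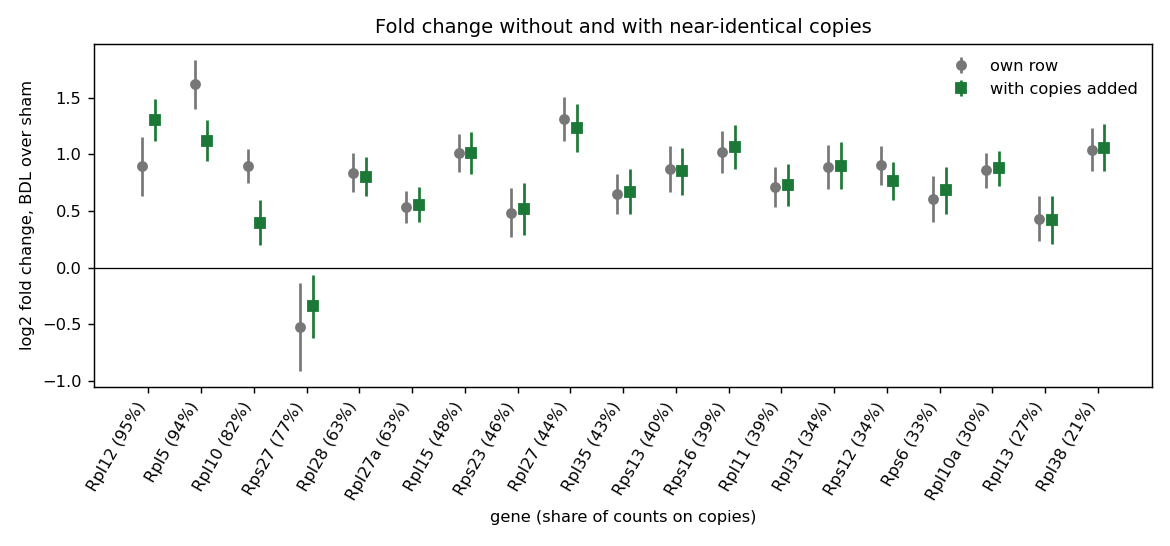
Log2 fold change (BDL over sham) with its standard error for the 19 members with at least 20% of their counts on near-identical copies, from the gene's own row (grey) and with the copies added (green). The shares stand beside the names. Rpl10, Rpl5 and Rpl12 move the most.

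Rpl5 (ENSMUSG00000058558, chr5:108048367-108058471) had 23.2, 23.9, 14.5 and 17.9 CPM in the BDL libraries against 7.09, 5.91 and 6.65 CPM in the sham libraries. That row gave a log2 fold change of 1.62 ± 0.22 (edgeR adjusted p = 0.0030), but 94.1% of the counts lay on copies, mainly Gm70833 on chromosome 7, which is annotated as a lncRNA and matched all 894 coding bases. With copies the log2 fold change was 1.12 (adjusted p = 0.0056). For Rpl12, 94.9% lay on copies and the log2 fold change was 1.30 with them, against 0.89 from its own row. Rpl10, a 60S protein that joins late in assembly, had 64.2, 72.3, 61.8 and 66.6 CPM in the BDL libraries against 28.7, 41.0 and 41.8 CPM in the sham libraries (0.89 ± 0.15, adjusted p = 0.0067). Its copy Rpl10-ps3 on chromosome 9 matched all 645 coding bases, and with copies the log2 fold change was 0.40 (adjusted p = 0.19).

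The tissue-restricted paralogs were close to absent. Rpl10l, known from testis, had 1 count over all libraries and was not tested. Rpl39l had 0.12, 0, 0.0494 and 0.158 CPM in the BDL libraries and 0 CPM in all 3 sham libraries, and Rpl3l, known from striated muscle, had at most 0.0578 CPM in any library. Among the expressed paralogs, Rpl22l1 rose (0.77 ± 0.19, edgeR adjusted p = 0.027), while Rpl22 had a log2 fold change of 0.65 (adjusted p = 0.063). Rpl36a rose (0.86), and Rpl36al was at 0.57 (adjusted p = 0.13). Rpl3 rose by 0.77, and Rpl7 (0.53) and Rpl7l1 (0.33) were not called. Rps4x rose (0.94), and Rps4l, with 50.9, 34.8, 45.04 and 49.0 CPM in the BDL libraries and 30.2, 41.0 and 30.4 CPM in the sham libraries, overlapped. Differences within these pairs were not tested.

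Other genes of the translation machinery were read from lists chosen with earlier results of these data known. Over all genes tested, 11.8% were called higher and 11% lower, and at the family's level 21.4% and 12.8%. These shares stand beside the counts called in the lists here and below. Of 25 initiation factor genes 18 rose and 0 fell, among them Eif2s2 (1.51), a subunit of eIF2, and Eif6 (1.49), which keeps free 60S subunits from joining 40S. Eif1 was the one initiation gene with a negative estimate (-0.42, edgeR adjusted p = 0.23). Of 8 elongation genes 4 rose, including Eif5a (1.54) and Eef1d (1.05). Of 18 other TOP mRNAs 12 rose, led by Hnrnpa1 (1.97) and including Npm1 (1.41), and 4 of 6 TOP host RNAs of snoRNAs rose, led by Snhg6 (1.68).

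Ribosome assembly genes gave 15 of 20 higher and 0 lower, with Ncl (1.56), Fbl (1.21) and Rrs1 (1.24) among them, and a median of 0.96. Of 7 chaperones of ribosomal proteins 3 rose, with Ltv1 (1.32) the most changed. Of 8 genes for transcription factors linked to ribosomal protein promoters, 3 rose: Myc (1.75), Mycn (1.54) and Gabpb1 (0.86). Among 11 genes that control TOP mRNA translation, such as Larp1, Mtor and Rps6kb1, edgeR and DESeq2 each called 0. At an unadjusted p under 0.05 in edgeR there were 2, beside 18.4% of all genes higher and 18.7% lower. Of the 78 mitochondrial ribosomal protein genes, 36 were called higher (46.2%) and 0 lower, beside 11.8% and 11% of all genes. Their median was 0.53 on the log2 scale.

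**Figure D5:**
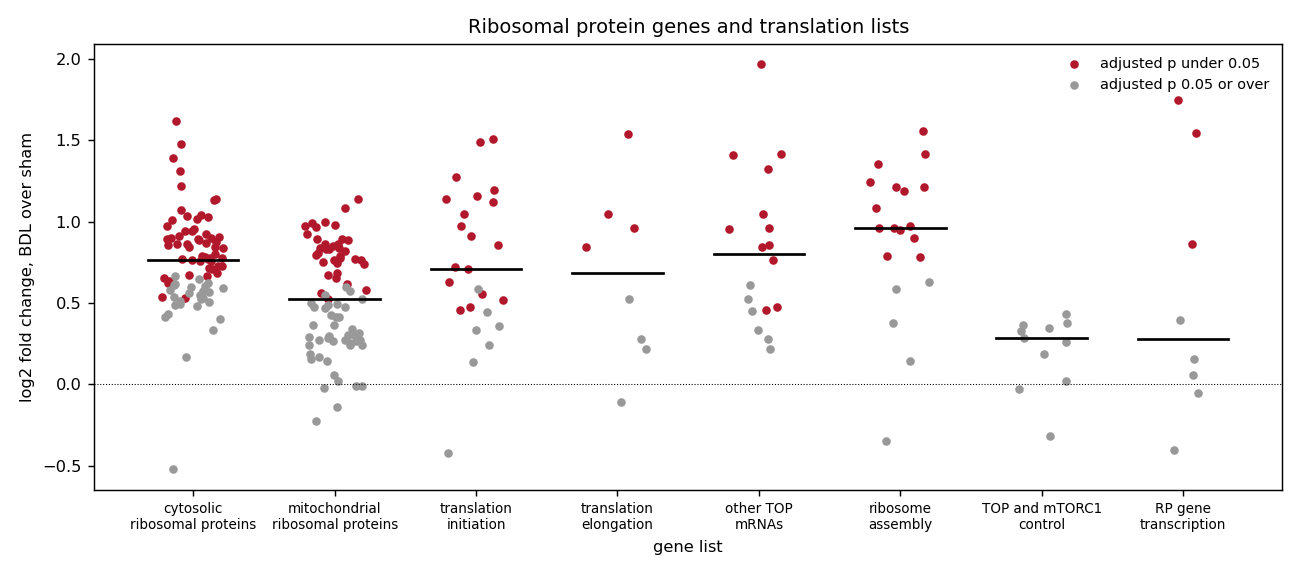
Log2 fold change (BDL over sham) of each gene in the family and in 7 lists, with red for an adjusted p under 0.05 in edgeR and a bar at each list's median. The family has 82 points with a median of 0.76, the mitochondrial ribosomal proteins a median of 0.53 and the TOP and mTORC1 control genes a median of 0.28.

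The letters CCGGAA, contained in sites of ETS factors, occurred on either strand between 250 bases before and 50 bases after the annotated GENCODE start in 44.7% of the 85 members, 46.2% of the 78 mitochondrial ribosomal protein genes and 17.0% of 21599 protein-coding genes. GGGCGG occurred in 51.8% of members and 42.7% of all, CACGTG in 12.9% and 7.9%, and TATAAA in 12.9% and 13.2%. These shares describe the windows and not binding.

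Tissue make-up differed between libraries. The 18 acinar markers took 0.244%, 8.99%, 13.8% and 0.00656% of the counts in the BDL libraries and 16.7%, 8.59% and 36.9% in the sham libraries, and the 12 hepatocyte markers took 0.00989% to 5.84% in the BDL libraries and 0.0897% to 0.284% in the sham libraries. With acinar, hepatocyte and digestive enzyme genes out of the total, the family took 1.77% to 1.87% in the BDL libraries and 1.07% to 1.51% in the sham libraries, still without overlap. Between BDL 2 and sham 2, both male and with near-equal acinar shares, 77 of 82 members were higher in BDL 2, with a median ratio of 1.36. That sets 1 library against 1, and the same share over all genes was not taken. The pair differed in other markers, with cholangiocyte shares of 1.03% in BDL 2 and 0.441% in sham 2. Hepatocyte shares were 0.00989% in BDL 2 and 0.284% in sham 2. All 6 cycling markers rose, with 0.0757% to 0.0877% of counts in the BDL libraries and 0.00230% to 0.00792% in the sham libraries, and 6 of 10 cholangiocyte markers rose while 1 fell, with 0.693% to 1.09% of counts in the BDL libraries and 0.199% to 0.442% in the sham libraries. Of the 7 fibroblast markers 3 were called higher and 2 lower, beside 11.8% and 11% of all genes. They took 1.09% to 1.28% of counts in the BDL libraries and 0.308% to 0.998% in the sham libraries. The ratio of mean shares, BDL over sham, was 1.79 for fibroblast and 2.47 for cholangiocyte markers. Over the marker lists that ratio ran from 0.0389 (lymphocyte) to 15.5 (cycling). For the family it was 1.84, and 1.40 with acinar, hepatocyte and digestive enzyme genes out of the total. All 7 lymphocyte markers and all 4 erythroid markers fell, beside 11% of all genes called lower. The part of each of these in the family's values was not tested.

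The estimated effect of BDL was smaller in male than in female libraries for most members, but no member was called for it. The interaction of sex and surgery, male minus female on the log2 scale, was below 0 in 81 of the 82 members with at least 100 counts, with a median of -0.51 and a range from -0.79 to 0.71, and Rpl5 was the exception. It was below 0 in 56.3% of all genes, with a median of -0.14, and its median was -0.0020 among genes at the family's level. The term was called for 0 of 84 members by edgeR (0% of all 25209 genes) and for 0 members by DESeq2 (1.84% of all genes). At an unadjusted p under 0.05 it named 1 member, Rps13, beside 6.91% of all genes. The term rests on sham 1, the one female sham library and the lowest sham library for 77 of the 82 members, so sex and that library cannot be told apart, and the members share that library.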

How the data were processed

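Total EHBD RNA was made into libraries with a SMART-Seq mRNA kit and sequenced as paired ends. The deposited table holds estimated counts per gene that the authors made with Salmon on GRCm39 (named in the submitters' processing notes); no strand is marked, so overlapping genes cannot be told apart, and Salmon divides reads among identical transcripts. Counts were rounded to whole numbers. Library totals ran from 48882420 to 61291821. Of 56065 genes, 55563 matched GENCODE M39, which supplied names and coordinates, and the other 502 held 0.034% of the counts.

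The main model was edgeR's quasi-likelihood test (version 4.0.16, R version 4.3.3) of surgery with a term for sex, after TMM scaling, on the 25209 genes with at least 10 counts in all, with p-values adjusted by Benjamini-Hochberg and called under 0.05. The study's DESeq2 (1.42.0) and limma-voom (limma 3.58.1) were alternatives, with other scalings, filters and left-out libraries. CPM are TMM-scaled. A copy was another gene whose transcript, of under 3000 bases, aligned with blastn 2.17.0+ to a member's at 95% identity or more over at least 80% of its length and 100 bases. The fit was also run on simulated counts with the same dispersion for all genes and no sex or acinar effect. In the data the median dispersion was 0.182 over all genes and 0.0790 over tested members. The simulation therefore does not give the error rate of the calls here.

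Named members were the 6 largest rises, the members with negative estimates, the 6 highest levels per coding length in BDL, the stalk, Mdm2-binding and ubiquitin fusion genes, paralog pairs, calls lost by scaling and the 10 non-overlapping members of smallest p, and for each list up to 4 genes of smallest p. The members and lists were chosen with earlier results of these data known. Some items that this rule names are not reported here by name; counts and medians include them.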

Additional observations from a re-analysis of the deposited data

Results flagged for a closer look

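In the 4 BDL libraries, 1 library stood apart from the other 3 in 6 of 83 measures examined, and chance flags about 1 in 20 groups. The count is near that share, and the measures come from the same 4 libraries, so no conclusion is drawn from it. BDL 4 was high for Rpl21 (184 CPM), Rpl34 (104 CPM), Rpl36a (77.5 CPM) and Rpl36al (215 CPM). BDL 1 was low for Rpl37 (91.5 CPM) and Rps28 (61.4 CPM). BDL 4 also had the highest hepatocyte marker share (5.84%) and the lowest acinar share (0.00656%) of the BDL libraries, and the part of these in its values was not tested.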

How the results depend on the processing

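No paired analysis was possible because the labels give no shared replicate numbers. The direction of the family held in all 23 alternatives, with a median log2 fold change from 0.53 to 0.93 and 0 members called lower, but the count of members called did not hold. With library totals alone it was 4 (4 for 60S and 0 for 40S, 60S median 0.90), beside 4.97% of all genes. With the acinar term it was 29 (16 for 60S, 13 for 40S), beside 9.77%. Without BDL 1 and BDL 4 it was 36 (18 for 60S), beside 8.85%, and without BDL 2 and BDL 3 it was 26 (14 for 60S, 12 for 40S), beside 8.53%. In male libraries alone it was 24 (13 for 60S, 11 for 40S), beside 11.4%, with medians of 0.53, 0.52 for 60S and 0.57 for 40S. Leaving out 1 library at a time gave 19 to 52 members (11 to 32 for 60S, 8 to 20 for 40S), with medians from 0.55 to 0.83 (0.53 to 0.82 for 60S, 0.58 to 0.89 for 40S), beside 6.82% to 12.8% of all genes called higher. The lowest member counts and medians came without sham 1, where the sex term left the male libraries alone to set the surgery effect. Adding copies was chosen after seeing the data. Over the named members, 733 of 931 values kept their call, 181 lost it, 17 gained one and 0 changed sign. Cells per library are unknown, and 3 sham libraries of unequal acinar content set the precision. The cause of these shifts was not tested.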
